A study of Mus musculus with 16 samples.

Results

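Epithelial nuclei of the choroid plexus were picked out of a single-nucleus RNA sequencing data set of the mouse hippocampus by the transcripts they held. A nucleus was taken when its barcode held 200 to 4000 genes and at most 5% mitochondrial counts, when 3 or more of the 6 genes Otx2, Folr1, Kl, Slc4a5, Clic6 and Kcne2 were detected, and when at most 1 of Mog, Csf1r, Slc17a7, Gad2 and Pdgfra, genes of other brain cells, was detected. This gave 1325 of the 118205 nuclei that passed the limits on genes and mitochondrial counts, or 1.12%. The 12 libraries with at least 20 such nuclei held 1297 of them, 3 libraries in each of 4 groups, and comparisons of expression used these 12.

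The choroid plexus is a folded tissue in the ventricles of the brain, in which one layer of epithelial cells surrounds leaky capillaries. The epithelium moves sodium, chloride, bicarbonate and water to secrete the cerebrospinal fluid, is closed by tight junctions that form the barrier between blood and this fluid, and makes transthyretin (Ttr), the carrier of thyroid hormone in the fluid. Its capillaries lack the blood-brain barrier. Type I interferons bind a receptor made of IFNAR1 and IFNAR2, whose kinases JAK1 and TYK2 activate factors such as STAT2, which joins IRF9 to switch on interferon-stimulated genes through a DNA element called ISRE.

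The mice were male and carried either the C57BL/6 genotype (wild type, WT) or Ifnar1-/-, the loss in all cells of one chain of the type I interferon receptor. Both genotypes received vehicle or DMXAA, a small molecule that activates mouse STING, a receptor for cyclic dinucleotides that leads to interferon production, by repeated intraperitoneal injection, and hippocampi were taken after perfusion a day after the last one. WT mice were 2 months and 23 days old and Ifnar1-/- mice 3 months and 3 days, so genotype and age cannot be told apart. Each of the 16 libraries, 4 per group, came from 1 animal, and nuclei were sorted by their DNA stain. The hippocampus was dissected and the choroid plexus was not sampled on its own.

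The libraries held 7869 to 12457 barcodes, of which 5510 to 10259 were kept. The 12 libraries used held 51 to 173 epithelial nuclei and 280052 to 1052114 of their unique molecular identifier (UMI) counts each, with a median of 4787 to 7604 UMIs per epithelial nucleus. No barcode of an epithelial nucleus was shared between any of the 120 pairs of libraries. The targeted transcript Ifnar1 stood at 13.9 to 19.3 UMIs per 1000000 (CPM) over all kept nuclei in the 8 WT libraries and at 10.8 to 12.7 in the 8 Ifnar1-/- libraries, without overlap. In epithelial nuclei it was 28.6, 17.6 and 20.1 CPM in WT vehicle, 25.5, 18.1 and 14.3 in WT DMXAA, 10.8, 7.60 and 17.3 in Ifnar1-/- vehicle and 10.6, 16.1 and 10.2 in Ifnar1-/- DMXAA. The transcript was lower but not lost in the Ifnar1-/- libraries, and whether the counted part of the gene lies inside the deletion is not given in the sources used here.

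The number of epithelial nuclei varied widely within every group. WT vehicle libraries 1 to 4 held 51, 159, 82 and 0 of them, WT DMXAA libraries 70, 158, 13 and 173, Ifnar1-/- vehicle libraries 1, 94, 149 and 136, and Ifnar1-/- DMXAA libraries 88, 57, 14 and 80. As a share of kept nuclei this was 0.911% ± 0.832 (SD, n = 4) in WT vehicle and 1.37% ± 1.06 in WT DMXAA, a difference of 0.461 percentage points (two-sided exact permutation test, p = 0.543). In Ifnar1-/- mice the shares were 1.38% ± 0.952 and 0.926% ± 0.533, a difference of -0.458 points (exact permutation test, p = 0.457). With 4 against 4 animals the smallest p this test can give is 0.0286. The 1 library with 0 epithelial nuclei allows a share of up to 0.0353% at a floor of 3 nuclei, and its 95% Wilson interval reached 0.0452%, both for counting error only. In both genotypes the difference was smaller than the SD between animals.

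**Figure D1:**
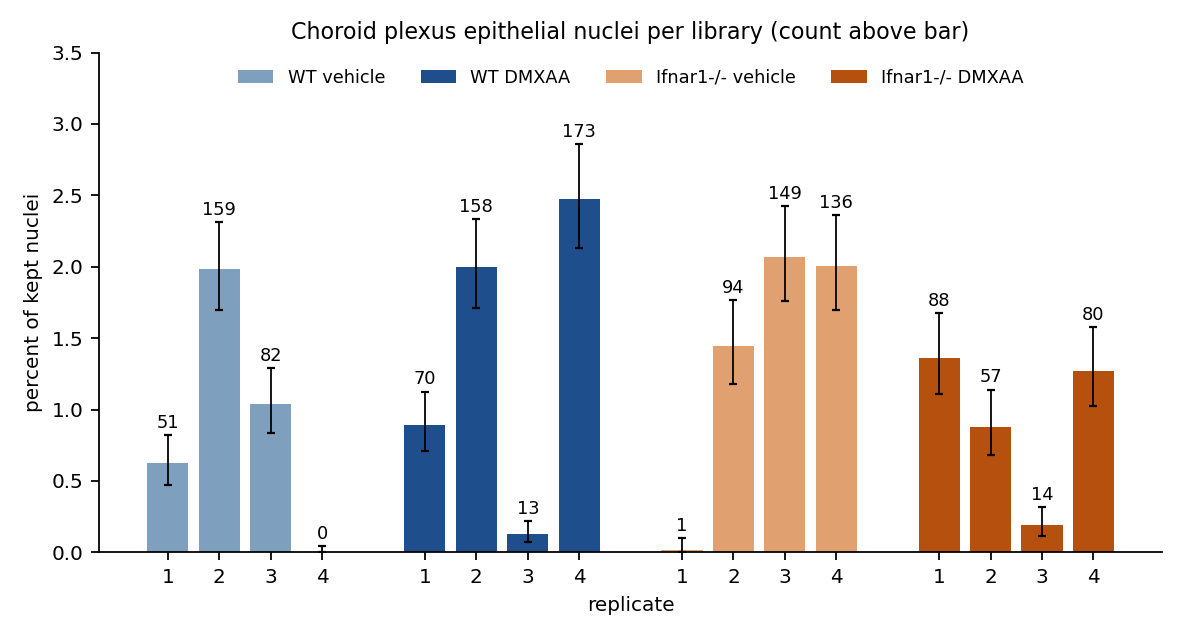
Choroid plexus epithelial nuclei as a percent of the kept nuclei of each of the 16 libraries, by group and replicate, with the 95% Wilson interval (counting error only) and the number of nuclei above each bar. Numbers run from 0 to 173, and 1 library in each group holds fewer than 20.

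The nuclei carried the transcripts that define this epithelium, also those the rule did not use. Since the rule picked the nuclei on 6 of these genes and the others travel with them, the values are a description with no test. Ttr stood at 9652 to 13329 CPM in the 6 WT libraries and 3813 to 5099 in the 6 Ifnar1-/- libraries, against a mean of 75.4 in all other kept nuclei. Htr2c, the serotonin receptor for which this tissue is known, was at 14586 CPM against 80.3. The channel gene Trpm3 had 21889 to 33663 CPM against 1599, and Enpp2, which encodes the secreted enzyme autotaxin, had 8575 against 171. Among genes with at least 50 CPM, the 25 with the largest ratio to other nuclei included the membrane protein gene Tmem72 (355-fold, median over libraries), the antisense transcript Otx2os1 (357-fold), the ciliary regulator Gmnc (217-fold), the transcription factor Lmx1a (174-fold), the collagens Col4a3 (168-fold) and Col8a1 (148-fold), the RNA-binding protein gene Rbm47 (111-fold), the tight junction gene Cldn2 (98.9-fold) and the osmosensitive channel Trpv4 (98.8-fold). Among 8 rostral position genes, Six3, a forebrain regulator, was at 28.9 to 53.1 CPM against 0.371 in other nuclei. The other 7 stood under 5 CPM in the epithelial nuclei. The 8 summed to 34.8 to 69.996 CPM per library, against 56.8 in other nuclei. Of 15 hindbrain position genes, 12 had 0 UMIs in the epithelial nuclei, among them all 10 Hox genes on the list. The 15 summed to 11.3 to 97.2 CPM per library, against 244 in other nuclei.

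The lower edge of the rule was graded. Pooled over the 12 libraries, the 1159 nuclei with 4 or more of the 6 markers held 8204 Ttr CPM and 14820 Htr2c CPM. The 138 nuclei with exactly 3, just inside, held 6263 and 11055, and the 136 nuclei with exactly 2, just outside, held 1456 and 1899. The 4087 nuclei with 1 marker held 85.5 Ttr CPM, near the 74.7 of all others.

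Markers of other brain cells were counted in the same nuclei. The summed level of 8 excitatory neuron markers was 496 to 557 CPM in WT vehicle, 179 to 320.2 in WT DMXAA, 567 to 895 in Ifnar1-/- vehicle and 442 to 568 in Ifnar1-/- DMXAA, against a mean of 5129 in other nuclei, so that the WT groups did not overlap. Syt1 alone gave 421, 330.2 and 297 CPM of it in WT vehicle, and the other 7 summed to 136 to 207 in WT vehicle and 102 to 131 in WT DMXAA. The list holds Syt1, Snap25 and Rbfox3, which mark neurons in general. The list is thus one of neuronal genes, and excitatory is kept only as its name. Syt1 had a mean of 339 CPM in epithelial nuclei and 2870 in other nuclei, where the other 7 summed to 2259. Whether the epithelium itself makes part of this level was not tested. In the same order, 9 microglia markers summed to 207 to 312, 275 to 303, 102 to 200.2 and 196 to 249.8 CPM, most of it from Cx3cr1, the fractalkine receptor, at 169 CPM in epithelial nuclei and 26.008 in all others. Astrocyte markers (8 genes) summed to 502 to 622, 456 to 698, 617 to 848 and 635 to 754 CPM, of which the zinc transporter Slc39a12 gave 487. Oligodendrocyte markers (8 genes) summed to 167 to 382, 224 to 335, 172 to 443 and 189 to 257, and fibroblast markers (9 genes, Col1a1 at 0) to 39.3 to 69.4, 36.1 to 76.6, 67.9 to 85.5 and 42.9 to 68.1. Endothelial and mural markers (9 genes, Cldn5 at 0) stayed at or below 17.9 CPM in every library. Inhibitory neuron markers (7 genes) summed to 1496 to 1653, 1273 to 1526, 1969 to 2123 and 1977 to 2291 CPM, against 2161 in other nuclei. Nearly all of this was Erbb4, a receptor for neuregulins, at 1751 CPM in epithelial nuclei and 987 in all others, and the other 6 summed to at most 95.7 in any library, against 1175. Ependymal markers (8 genes), those of the other ciliated cells of the ventricle wall, summed to 71.4 to 159, 67.7 to 85.9, 40.1 to 110.4 and 52.8 to 148, against 31.7, the largest part being Foxj1, a regulator of motile cilia. At least 3 excitatory markers were seen in 126 of the 1297 nuclei, 3 microglia markers in 23, 3 inhibitory markers in 21, 3 ependymal markers in 6 and 3 endothelial markers in 0. By library, nuclei with 3 excitatory markers numbered 4, 16 and 13 in WT vehicle (of 51, 159 and 82). In WT DMXAA they numbered 3, 5 and 9 (of 70, 158 and 173). In Ifnar1-/- vehicle they numbered 22, 17 and 12 (of 94, 149 and 136), and in Ifnar1-/- DMXAA 12, 8 and 5 (of 88, 57 and 80). Their part in the changes with DMXAA was not tested. No doublet caller was run, and the limits of 4000 genes and 1 exclusion gene stood in its place.

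Interferon-stimulated genes were higher in the choroid plexus epithelium of the 3 WT DMXAA libraries used than in that of the 3 WT vehicle libraries. WT DMXAA library 3, with 13 epithelial nuclei, was below the minimum, and its list level is given below. Ifi27, a mitochondrial and nuclear envelope protein gene induced by interferon (chr12:103434211-103440239, mm10), rose, as did Bst2, which encodes the virus-tethering protein tetherin, Trim30a, a ubiquitin ligase family member, Ddx58, which encodes the RNA sensor RIG-I, and Gm20559. Of the 100 interferon-induced genes on 4 lists (signalling, sensors, effectors and GTPases), 26 had enough counts to test, and 5 of these rose and 0 fell at an adjusted p under 0.05 in edgeR's quasi-likelihood test. Of all 9442 genes tested, 0.71% passed, 0.244% higher and 0.466% lower. The median log2 change of the 26 was 1.02, against -0.01 over all genes tested, and 26 of 26 were positive. In 15 of the 26, all WT DMXAA libraries were above all WT vehicle libraries, which held for 7.78% of all genes. The count filter asked for enough counts in 3 of the 12 libraries, which could all be WT DMXAA. Mean Bst2 was 8.55, 73.0, 3.74 and 7.05 CPM in WT vehicle, WT DMXAA, Ifnar1-/- vehicle and Ifnar1-/- DMXAA. Gm20559, in the same order, was 6.44, 39.4, 3.81 and 1.72. List genes could thus enter by being high after DMXAA, so the signs, median and overlap count of the 26 are a description with no test.

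Ifi27 was 164, 171 and 212 CPM in the WT vehicle libraries and 431, 385 and 384 in the WT DMXAA libraries. The groups did not overlap, and the log2 change was 1.12 ± 0.16 (SE, edgeR adjusted p = 0.000883). Bst2 (chr8:71534255-71537456) was 0, 14.5 and 11.1 CPM in vehicle and 108, 41.8 and 69.6 after DMXAA, a log2 change of 2.62 ± 0.41 (edgeR adjusted p = 0.00259). Every DMXAA library was again above every vehicle library, and the first DMXAA library, which held 70 nuclei, was the highest. The same library led for the other genes of the group. Trim30a was 7.14, 10.4 and 17.8 CPM in vehicle and 93.6, 31.6 and 35.8 after DMXAA (log2 change 1.96 ± 0.42, edgeR adjusted p = 0.0269). Ddx58 was 7.14, 23.8 and 35.7 and 122, 42.9 and 71.6 CPM (1.57 ± 0.35, edgeR adjusted p = 0.0295). Gm20559 was 7.14, 1.04 and 11.1 and 62.4, 29.4 and 26.6 CPM (2.81 ± 0.57, edgeR adjusted p = 0.0209). Stat2, a subunit of the factor that binds ISRE, was 28.6, 13.5 and 31.2 CPM in vehicle and 235, 41.8 and 43.983 after DMXAA. Its log2 change of 2.02 ± 0.53 did not pass the test (edgeR adjusted p = 0.0831), and the libraries did not overlap. Irf9 had a log2 change of 1.03 ± 0.27 and the RNA-activated kinase gene Eif2ak2 one of 1.01 ± 0.32, neither of which passed. Of the 5 genes that passed, Ifi27 and Bst2 still did so in all 12 fits that left out a library, and Trim30a, Ddx58 and Gm20559 did not without WT DMXAA library 1 or WT vehicle library 2. Trim30a also missed without WT vehicle library 1 or 3, and Ddx58 without WT vehicle library 1 or WT DMXAA library 4. Gm20559 did not pass in DESeq2 or limma. With libraries of at least 10 nuclei Bst2 alone of the 5 passed, with no upper limit on genes Ifi27 alone, and with none of the 5 exclusion genes only these 2. The limit of 10 nuclei lets in WT DMXAA library 3 (13 nuclei) and Ifnar1-/- DMXAA library 3 (14 nuclei). Without WT DMXAA library 1 the median log2 change of the 26 was 0.78. With the excitatory marker level given above as a covariate, chosen after seeing the data, it was 0.31 and 0 of the 5 passed, with log2 changes of 0.48 to 1.64.

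**Figure D2:**
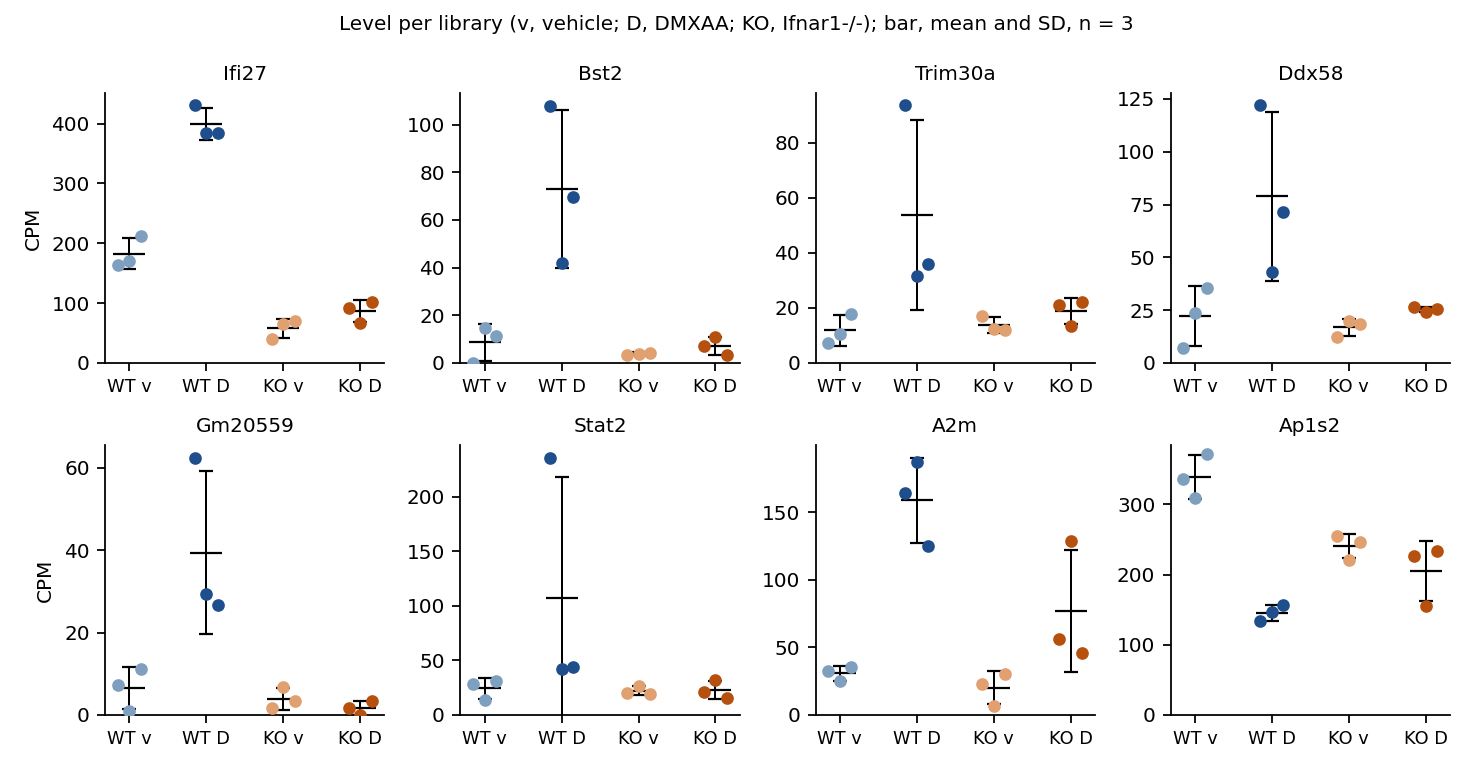
CPM in choroid plexus epithelial nuclei of 8 genes in each of the 12 libraries, by group, points for libraries and bars for the mean ± SD (n = 3). Ifi27, Bst2, Trim30a, Ddx58, Gm20559, Stat2 and A2m are higher in every WT DMXAA library than in any WT vehicle library, and Ap1s2 is lower.

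The promoters of 3 of these genes hold the letters of ISRE, the element through which STAT2 and IRF9 act, and they are shown because they place the motif beside the start of genes that rose. The motif searched was GAAA, any 2 bases and GAAA, on both strands, in the 300 bases from 250 before to 50 after the RefSeq start site. Capitals mark it, and all stretches are given 5′ to 3′ on the strand of the gene, from RefSeq on GRCm38.p6. The Bst2 stretch holds overlapping matches that begin 130 and 124 bases before the start, and the Trim30a match begins 36 bases before it. The Ddx58 site begins 2 bases past the start and is shown with 10 bases on either side.
Bst2, chr8:71537473-71537722, minus strand: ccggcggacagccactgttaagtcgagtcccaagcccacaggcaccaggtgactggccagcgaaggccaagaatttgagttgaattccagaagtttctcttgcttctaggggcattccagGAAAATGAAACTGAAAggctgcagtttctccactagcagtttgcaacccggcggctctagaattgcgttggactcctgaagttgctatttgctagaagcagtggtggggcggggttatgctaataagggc
Trim30a, chr7:104465194-104465443, minus strand: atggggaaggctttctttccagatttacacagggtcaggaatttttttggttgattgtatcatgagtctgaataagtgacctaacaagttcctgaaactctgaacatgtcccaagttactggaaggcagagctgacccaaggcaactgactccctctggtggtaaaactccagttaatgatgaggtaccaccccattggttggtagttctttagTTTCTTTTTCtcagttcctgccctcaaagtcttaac
Ddx58, chr4:40239804-40239833, minus strand: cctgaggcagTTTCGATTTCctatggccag
Of the 23 genes that rose in WT epithelial nuclei, 16 had a promoter in the table used, and 3 of these (18.8%) held the motif. It was in 2 of 32 promoters of genes that fell (6.25%) and in 1079 of 27025 genes with a promoter (3.99%). Of the 26 interferon-list genes tested 23 had a promoter, and 10 of these held it (43.5%). A match is a run of letters and was not tested for binding. Ifi27 and A2m had no entry in the table.

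Several interferon-list genes had no UMI in the WT vehicle epithelial nuclei and were seen after DMXAA. Parp14, an ADP-ribosyltransferase gene, went from 0 to 32 UMIs over the 3 libraries (15, 7 and 10), at least 8.16-fold higher than the floor of 3 counts over the vehicle group, which is 1.77 CPM. Oasl2, of the oligoadenylate synthase family, had 29 UMIs (18, 6 and 5, at least 7.39-fold higher), and Iigp1, an immunity-related GTPase, had 23 (12, 4 and 7, at least 5.86-fold higher). There were 7 such list genes with more than 3 UMIs after DMXAA, 5 of them seen in all 3 libraries and 6 with 0 UMIs in both Ifnar1-/- groups, and in all 7 the first WT DMXAA library had the most. Choice by 0 UMIs with vehicle fixed the direction, so these genes are a description with no test. The reverse case was not counted. The bounds pool the 3 libraries, and the lowest of the 7 was 1.02-fold, for Isg15 with 4 UMIs in 1 library. Gbp3 was not seen in WT DMXAA library 2. Rtp4, an interferon-induced gene that is not on the lists and was chosen after its values were seen, went from 0 to 50 UMIs (26, 9 and 15, at least 12.7-fold higher). Over the WT DMXAA libraries, Parp14, Oasl2, Iigp1 and Rtp4 stood in that order at 20.2 ± 19.4, 20.975 ± 26.047, 15.2 ± 16.3 and 33.1 ± 35.3 CPM (mean ± SD, n = 3) in the epithelium, at 1.68 ± 0.392, 11.1 ± 11.7, 1.74 ± 0.936 and 10.8 ± 4.18 in oligodendrocyte nuclei, at 375, 267, 13.5 and 68.3 in microglia, at 41.9, 100.1, 10.1 and 36.4 in astrocytes, at 115, 228, 56.1 and 35.4 in fibroblasts and at 17.2 ± 9.38, 28.7 ± 22.7, 7.69 ± 2.04 and 9.16 ± 2.49 in all other kept nuclei. The SDs of the epithelial values were near or above their means, and the part of free RNA from other cells was not tested. None of the 16 interferon-induced GTPase genes had enough counts to test, and their summed level was 3.57 to 13.4 CPM in WT vehicle, 31.6 to 162 in WT DMXAA, 4.63 to 5.70 in Ifnar1-/- vehicle and 0 to 8.04 in Ifnar1-/- DMXAA. On the 4 lists, 14 genes had 0 UMIs in all epithelial nuclei, among them Oas3, Ifi44l, Gbp2 and Gbp4.

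The interferon-list counts were also summed per library, and the share of nuclei that held any was counted, with libraries as the units compared. UMIs of the 4 lists made up 8.68, 7.90 and 9.65 per 10000 in the WT vehicle libraries and 32.5, 14.7 and 16.7 in the WT DMXAA libraries, a difference of 12.6 (two-sided exact permutation test, p = 0.1, the smallest that 3 against 3 can give). Without WT DMXAA library 1 the difference was 6.94. After thinning each nucleus to 1000 UMIs, 56.7% ± 12.7 (SD, n = 3) of WT vehicle nuclei and 81.7% ± 7.38 of WT DMXAA nuclei held at least 1 UMI of the lists (exact permutation test, p = 0.1), with 1 shallower nucleus left out in each group. Unthinned, these shares were 98.1% and 99.8%. In WT DMXAA library 3, left out with 13 nuclei, the lists made up 9.67 per 10000 and the thinned share was 61.5%. The thinned shares of the WT vehicle libraries were 46.0%, 53.5% and 70.7%. The lists gave, in Ifnar1-/- mice, 6.76 ± 0.479 per 10000 with vehicle and 7.14 ± 0.361 with DMXAA (exact permutation test, p = 0.6), and the thinned shares were 48.3% ± 3.13 and 51.6% ± 4.31 (exact permutation test, p = 0.5). In the Ifnar1-/- comparison, 0 of the 26 tested list genes passed, beside 0.0106% of all genes, their median log2 change was 0.01 and 13 of 26 were positive. Some of these genes met the count filter through the WT DMXAA libraries alone, so the WT and Ifnar1-/- medians are no test of the genotypes. Bst2 was 3.09, 3.80 and 4.33 CPM in Ifnar1-/- vehicle and 7.04, 10.7 and 3.40 in Ifnar1-/- DMXAA, and Ifi27 was 40.1, 64.6 and 69.3 and 91.5, 66.995 and 102.

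**Figure D3:**
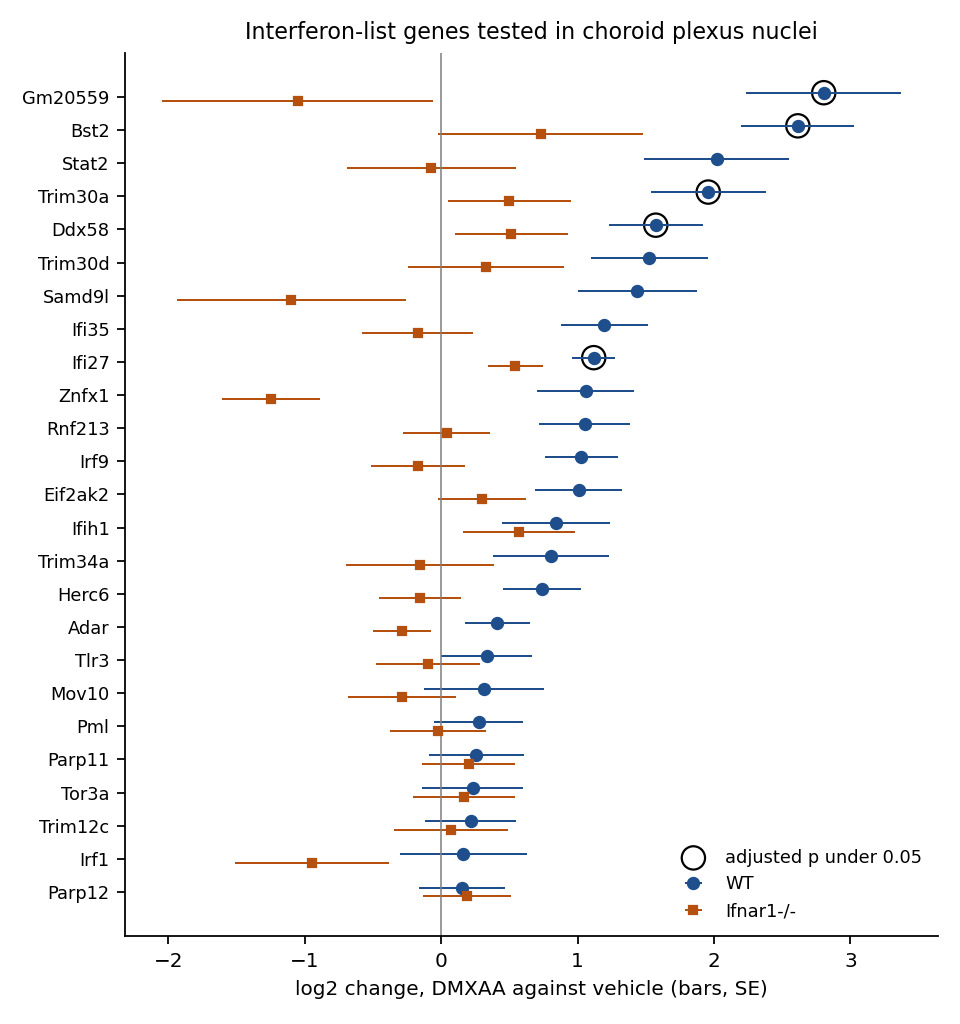
Log2 change with DMXAA of 25 of the 26 tested interferon-list genes in choroid plexus epithelial nuclei, circles for WT and squares for Ifnar1-/-, with an SE derived from the F of the test, the genes that passed in WT ringed. All 25 WT values lie above 0 (median of the 26, 1.02), and the Ifnar1-/- values lie on both sides (median of the 26, 0.01). The count filter could be met through the WT DMXAA libraries alone.

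On lists of related defence genes 0 passed, beside 0.71% of all genes in WT and 0.0106% in Ifnar1-/-, shares at which lists this short could hold 0. Of 24 antigen presentation genes 8 were tested and 0 passed, with a median log2 change of 0.49 and 8 of 8 positive. The limit of the count filter given above holds for these signs too. H2-K1, a class I histocompatibility heavy chain, had 10.7, 6.21 and 8.92 CPM in WT vehicle and 45.4, 30.5 and 18.4 in WT DMXAA (log2 change 1.85 ± 0.46, edgeR adjusted p = 0.0578), and its light chain B2m had a log2 change of 1.93 ± 0.57. Of the STING pathway and receptor genes 7 were tested and 0 passed in either genotype. Ifnar2, the other receptor chain, had 85.7, 72.5 and 57.969 CPM in WT vehicle and 108, 100.5 and 72.6 in WT DMXAA, against 23.3 in other nuclei, and the kinase gene Tbk1, which acts below STING, had 89.3, 59.010 and 78.035 and 70.9, 90.3 and 65.5. Both transcripts were seen in every library of these groups. Of 33 inflammation and leukocyte entry genes 12 were tested and 0 passed in either genotype. Vcam1, an adhesion molecule for leukocytes, had 85.7, 126 and 118 CPM in WT vehicle and 181, 152 and 155 in WT DMXAA, and the chemokine genes Cxcl10, Cxcl9, Ccl2 and Ccl20 had 0 UMIs in all epithelial nuclei of the 12 libraries.

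In all, 67 of 9442 genes passed in WT mice, 23 higher and 44 lower after DMXAA, a balance that did not hold in every setting. Besides the interferon genes, the largest rise was that of A2m, which encodes the broad protease inhibitor alpha-2-macroglobulin (chr6:121635376-121679227). It was 32.1, 24.8 and 35.7 CPM in WT vehicle and 164, 187 and 125 in WT DMXAA, a log2 change of 2.41 ± 0.35 (edgeR adjusted p = 0.000936). In Ifnar1-/- libraries A2m was 23.1, 6.65 and 30.3 CPM with vehicle and 56.3, 129 and 45.9 with DMXAA, and its log2 change of 1.86 ± 0.39 did not pass (edgeR adjusted p = 0.148). In both genotypes every DMXAA library was above every vehicle library. Slc24a4, a sodium, calcium and potassium exchanger, was 114, 89.032 and 80.3 CPM in WT vehicle and 264, 194 and 226 in WT DMXAA (log2 change 1.28 ± 0.21, edgeR adjusted p = 0.00494), and the Ifnar1-/- libraries overlapped (292, 172 and 227 against 252, 375 and 291). Genes that are themselves high in this epithelium also rose. Col4a3, a basement membrane collagen chain, went from 389, 388 and 352 to 661, 719 and 505 CPM (log2 change 0.73 ± 0.15, edgeR adjusted p = 0.0242, and -0.04 in Ifnar1-/-), and Cdh3, which encodes P-cadherin, from 85.7, 100.4 and 86.953 to 224, 173 and 164 (0.96 ± 0.18, edgeR adjusted p = 0.0139, and -0.07 in Ifnar1-/-). Cdh3 stood at 0.354 CPM in all other nuclei. The copper pump gene Atp7a rose from 254, 247 and 227 to 488, 405 and 311 CPM and the mechanically gated channel gene Piezo1 from 71.4, 77.6 and 64.7 to 164, 181 and 109 (log2 changes 0.69 ± 0.17 and 1.04 ± 0.21). In Ifnar1-/- their log2 changes were -0.04 ± 0.17 and 0.86 ± 0.23, and neither passed. In fits that left out a library Cdh3 passed in 9 of 12, Col4a3 and Piezo1 in 8 and Atp7a in 5, and Atp7a did not pass in limma.

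Other genes that rose included Hspa5, the chaperone BiP of the endoplasmic reticulum. It was 46.4, 80.8 and 80.3 CPM in WT vehicle and 113, 143 and 223 in WT DMXAA (log2 change 1.18 ± 0.23, edgeR adjusted p = 0.0154). Hsp90b1, the chaperone GRP94 of the same compartment, was 132, 135 and 138 and 201, 208 and 389 CPM (1.01 ± 0.20, edgeR adjusted p = 0.0209), and Pdia3, a disulfide isomerase, 121, 60.045 and 66.9 and 133, 138 and 197 CPM (1.07 ± 0.24, edgeR adjusted p = 0.0295). In each the DMXAA libraries were above the vehicle libraries. Manf, a factor kept in or secreted from this compartment, had a log2 change of 0.96 ± 0.23, and Magt1, a subunit of the enzyme that attaches sugars to new proteins, 1.11 ± 0.25. In Ifnar1-/- mice the log2 changes were 0.38 for Hspa5, 0.42 for Hsp90b1, 0.17 for Pdia3, 0.37 for Manf and 0.09 for Magt1, and none passed. These 5 genes were set together after their values were seen, without a list fixed for them. Hspa5, Hsp90b1 and Pdia3 did not pass without WT DMXAA library 4, in which each was highest, or without WT vehicle library 2 or 3, and Manf passed in 4 and Magt1 in 6 of the 12 fits that left out a library. The promoters of Hspa5 and Hsp90b1 are shown because they hold the endoplasmic reticulum stress response element, an element looked for because of these genes. It was searched as CCAAT, any 9 bases and CCACG on both strands and marked in capitals.
Hspa5, chr2:34772020-34772049, plus strand: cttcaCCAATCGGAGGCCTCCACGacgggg
Hsp90b1, chr10:86705510-86705694, minus strand: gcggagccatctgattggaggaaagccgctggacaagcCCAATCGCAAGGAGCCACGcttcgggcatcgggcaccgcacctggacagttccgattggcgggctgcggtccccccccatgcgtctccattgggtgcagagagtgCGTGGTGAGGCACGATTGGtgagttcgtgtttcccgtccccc
The Hspa5 match begins 65 bases before the RefSeq start, and those of Hsp90b1 begin 212 and 107 bases before it. Of all 27025 genes with a promoter 37 hold the element (0.137%), and nothing is read from its presence in genes for which it was chosen.

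The clearest fall was that of Ap1s2, a small subunit of the AP-1 adaptor that packs cargo into clathrin-coated vesicles (chrX:163909017-163933666). It was 336, 309.5 and 372 CPM in the WT vehicle libraries and 133, 147 and 156 in the WT DMXAA libraries, a log2 change of -1.20 ± 0.15 (edgeR adjusted p = 0.000276). In Ifnar1-/- mice it was 255, 221 and 247 with vehicle and 227, 155 and 233 with DMXAA, values that overlapped (log2 change -0.24 ± 0.15). The difference between the genotypes' changes was -0.96 ± 0.21 and did not pass (edgeR adjusted p = 0.209). Ap1s2 was the 1 gene that passed in WT in all 11 other planned settings that gave it a value and in all 12 fits that left out a library, with log2 changes from -1.30 to -0.96.

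Among the other falls were those of Cfap69 and Wdr63, genes of cilia, which this epithelium carries in tufts. Cfap69, a ciliary protein gene, was 628, 563 and 687 CPM in WT vehicle and 352, 427 and 460.3 in WT DMXAA (log2 change -0.58 ± 0.13, edgeR adjusted p = 0.0295), and Wdr63, an axonemal dynein subunit gene, 139, 137 and 178 and 85.1, 97.1 and 91.035 (-0.71 ± 0.17, edgeR adjusted p = 0.0433). Neither was on the list of 25 cilia genes, and they were singled out after their values were seen. In fits that left out a library Cfap69 passed in 7 of 12 and Wdr63 in 3, and Wdr63 did not pass in DESeq2. Of that list 19 were tested and 0 passed in WT or Ifnar1-/- mice, beside 0.71% and 0.0106% of all genes, with a median log2 change of -0.30 in WT, where 4 of 19 were positive, and -0.02 in Ifnar1-/-, where 8 of 19 were. The 2 tested ependymal markers, Foxj1, which the cilia list also holds, and Dnah12, had log2 changes of -0.39 ± 0.23 and -2.17 ± 0.95 in WT and did not pass, and the summed ependymal marker level was 110.4 ± 44.9 CPM (SD, n = 3) in WT vehicle and 76.7 ± 9.09 in WT DMXAA. Their part in the falls of Cfap69 and Wdr63 was not tested. The summed level of the cilia list was 5543 to 5831 CPM in WT vehicle and 4364 to 5517 in WT DMXAA. The clock gene Per3 fell, from 104, 114 and 136 CPM in WT vehicle to 25.5, 68.9 and 66.5 in WT DMXAA (log2 change -1.01 ± 0.23, edgeR adjusted p = 0.0371), 1 of 16 tested clock genes to pass, beside 0.466% of all genes lower. Per3 passed in 6 of the 12 fits that left out a library and not in limma. The clock output gene Dbp and the core clock gene Arntl had log2 changes of -1.05 ± 0.30 and 1.22 ± 0.39 and did not pass. Other falls included Rgs22, a regulator of G protein signalling (32.1, 43.5 and 44.6 against 17.012, 10.2 and 13.3 CPM), P3h2, a collagen prolyl hydroxylase gene (150.0, 144 and 161 against 79.4, 81.3 and 79.8), and Osbp, an oxysterol-binding protein gene (78.6, 64.2 and 86.953 against 22.7, 34.998 and 41.9). In fits that left out a library P3h2 passed in 11 of 12, Rgs22 in 8 and Osbp in 7, Rgs22 and Osbp did not pass with at least 4 markers and Osbp did not in DESeq2.

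Most genes that fell were higher in other nuclei than in the epithelium. Of the 44, 32 had a lower mean CPM in epithelial nuclei than in all other nuclei, 29 of them by more than 2-fold, whereas 20 of the 23 that rose and 7127 of all 9442 tested were higher in the epithelium. They included synaptic and neuronal genes. Lingo2 was 236, 129 and 75.8 CPM in WT vehicle and 28.4, 22.6 and 36.8 in WT DMXAA, with 2018 in other nuclei, and Lrrtm4, a synaptic adhesion gene, 143, 256 and 134 and 14.2, 72.3 and 50.1, with 4150.5. The neurexin gene Nrxn3 was 107, 148 and 167 and 51.036, 64.4 and 40.9, with 3940.3. Syt1, the synaptic vesicle calcium sensor and 1 of the 8 excitatory markers, was 421, 330.2 and 297 and 76.6, 161 and 204, with 2870.3. In the 12 fits that left out a library Lingo2 passed in 12, Lrrtm4 in 11 and Syt1 in 10. Lrrtm4 did not pass in DESeq2, and Lingo2, Lrrtm4 and Syt1 did not with libraries of at least 10 nuclei. The summed excitatory marker level given above was lower in the WT DMXAA libraries, and Syt1 gave most of it in WT vehicle. Of the 6 tested excitatory markers 1 passed, lower, beside 0.466% of all genes. None of the 8 was at 0 over the epithelial nuclei. When the log2 of that level was added to the fit as a covariate, chosen after seeing the data, 0 genes passed in WT mice in edgeR, with 506 at an unadjusted p under 0.05, and the median log2 change of the interferon lists was 0.31. Because the marker level rests mostly on Syt1, itself called in this comparison, and did not overlap between the WT groups, the loss of calls is no test of these genes, and the part of the level and that of the treatment cannot be told apart in that fit. When only genes at least as high in the epithelium as in other nuclei were tested, also chosen after seeing the data, 37 passed, 23 higher and 14 lower.

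**Figure D4:**
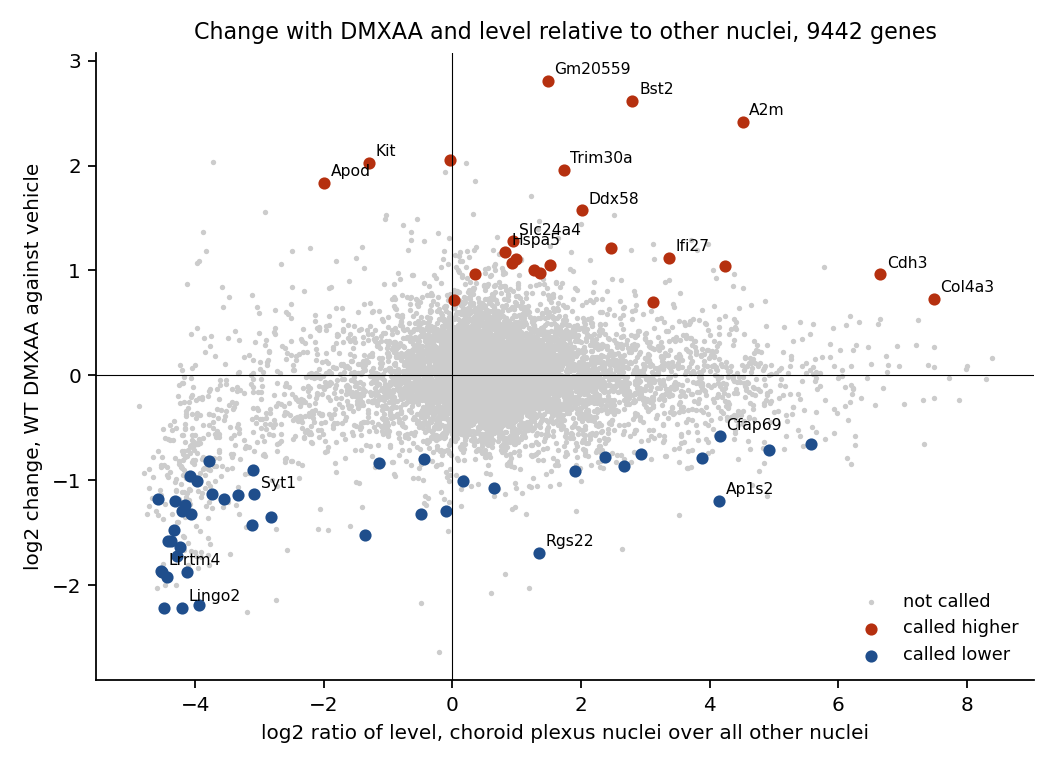
Log2 change with DMXAA in WT choroid plexus epithelial nuclei against the log2 ratio of each gene's mean CPM in these nuclei to that in all other nuclei, for the 9442 genes tested, with the genes that passed in colour. Of the 23 that rose, 20 lie to the right of 0, and of the 44 that fell, 32 lie to the left.

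The count of 67 rested on single libraries. It was 9 without WT vehicle library 2, 23 without WT vehicle library 3, 22 without WT DMXAA library 1, 32 without WT DMXAA library 2 and 119 without Ifnar1-/- vehicle library 2. It was 4 when libraries with 10 or more nuclei were used and 2 when nuclei with more than 4000 genes were let in. The excess of falls turned with none of the 5 exclusion genes (6 higher and 3 lower), with libraries of 10 or more nuclei (3 and 1), without WT vehicle library 2 (5 and 4) and without WT DMXAA library 2 (17 and 15).

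On the lists of identity, transport, junction and secreted factor genes 0 passed in either genotype after DMXAA, beside 0.71% of all genes in WT and 0.0106% in Ifnar1-/-, so that lists of this length could hold 0 at the background share. All 18 identity genes outside the rule were tested and 0 passed, with a median log2 change of -0.01 in WT. The 19 tested ion and fluid transport genes had a median of 0.01. Slc12a2, the sodium, potassium and chloride cotransporter NKCC1, was 686, 571 and 542 CPM in WT vehicle and 496, 514 and 653 in WT DMXAA (log2 change -0.10 ± 0.13). Aqp1, the water channel, had 10.7, 26.9 and 20.1 and 45.4, 21.5 and 30.7 CPM (0.46 ± 0.34). Atp1b1, a subunit of the sodium pump, had a log2 change of 0.12 ± 0.12 and the bicarbonate transporter gene Slc4a10 one of 0.14 ± 0.11. The 16 solute and metal transport genes had a median of -0.17, the 13 junction genes 0.12 and the 19 secreted factors 0.16. The 19 hold Kl, 1 of the 6 genes the rule used, so the count and median of that list are a description with no test. Ttr was 11641, 11818 and 9652 CPM in WT vehicle and 13329, 11503 and 12981 in WT DMXAA (0.18 ± 0.10, edgeR adjusted p = 0.587), and the extracellular sulfatase gene Sulf1 had a log2 change of -0.12 ± 0.12. Of 13 glucocorticoid and stress response genes tested 0 passed, and the kinase gene Sgk1 had a log2 change of 0.02 ± 0.13.

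In Ifnar1-/- mice 1 gene passed after DMXAA. Rbfox1, a neuronal splicing regulator, was 901, 400.1 and 459.9 CPM in Ifnar1-/- vehicle and 227, 284 and 216 in Ifnar1-/- DMXAA, a log2 change of -1.32 ± 0.23 (edgeR adjusted p = 0.0408). In WT it was 143, 180.1 and 172 and 198, 168 and 128 CPM, and in other nuclei 5372. The excitatory marker level was 567 to 895 CPM in Ifnar1-/- vehicle and 442 to 568 in Ifnar1-/- DMXAA. With that level as a covariate, chosen after seeing the data, the log2 change of Rbfox1 was -1.01 and did not pass (edgeR adjusted p = 0.828), and 0 genes passed, with 447 at an unadjusted p under 0.05. The level rests mostly on Syt1, so the loss of the call is no test of Rbfox1. Next by p, without passing, came Tspan5, Nlgn1, A2m, Epha6, Gm11084, Celf2, Apoe, 5730522E02Rik and Tenm2. Apoe, the lipid carrier, had 70.987, 71.3 and 132 CPM with vehicle and 146, 139 and 323 with DMXAA (log2 change 1.14 ± 0.26, edgeR adjusted p = 0.197). At an unadjusted p under 0.05 there were 690 genes (7.31%), and DESeq2 and limma each passed 0. The count of 1 was 0 without any one of WT vehicle libraries 1, 2 and 3, WT DMXAA library 2, Ifnar1-/- vehicle library 2 or Ifnar1-/- DMXAA library 2, 15 without Ifnar1-/- vehicle library 4, 5 without Ifnar1-/- DMXAA library 1 and 2 without Ifnar1-/- DMXAA library 4. Rbfox1 was not among the genes that passed without Ifnar1-/- DMXAA library 1 or 4, so that it passed in 4 of these 12 fits. Of the 23 genes that rose in WT, 19 had a positive log2 change in Ifnar1-/-, with a median of 0.42, and of the 44 that fell, 38 had a negative one, with a median of -0.38. Over all genes tested, 4701 of 9442 were positive in Ifnar1-/-, with a median of -0.002. The Ifnar1-/- libraries stood apart in 8 of the 23 and 12 of the 44. Over all 9442 they stood apart in 658 genes with DMXAA higher and 473 with DMXAA lower.

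The test of the difference between the WT and the Ifnar1-/- response passed for 0 of 9442 genes in edgeR, with 549 (5.81%) at an unadjusted p under 0.05, for 1 in DESeq2 and for 0 in limma. A change that passed in WT and not in Ifnar1-/- is therefore not shown to differ between the genotypes gene by gene. Bmp6, a bone morphogenetic protein that this epithelium expresses above other nuclei (655 against 32.5 CPM), had the lowest p. It was 475, 562 and 477 CPM in WT vehicle, 672, 697 and 651 in WT DMXAA, 806, 802 and 849 in Ifnar1-/- vehicle and 602, 592 and 679 in Ifnar1-/- DMXAA. Its libraries were higher with DMXAA in WT and lower in Ifnar1-/-, a difference of 0.82 ± 0.16 (edgeR adjusted p = 0.205), and it passed in neither genotype (log2 changes 0.40 ± 0.12 and -0.42 ± 0.11). Znfx1, an antiviral helicase family gene on the sensor list, had a difference of 2.31 ± 0.51 and Gm11084 one of -2.50 ± 0.52. The other genes of the 10 with the lowest p were Ppfia2, Lrrtm4, Ap1s2, Rell1, Plekhg1, Etv1 and Cystm1.

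Vehicle-treated epithelial nuclei of the 2 genotypes differed in many genes. Between Ifnar1-/- vehicle and WT vehicle 2688 genes passed, 28.5% of those tested, with 1303 higher (13.8%) and 1385 lower (14.7%) in Ifnar1-/-. Age cannot be told apart from genotype here. With the excitatory marker level as a covariate 1727 passed. Ttr was 11641, 11818 and 9652 CPM in WT vehicle and 3813, 4203 and 4141 in Ifnar1-/- vehicle, a log2 difference of -1.34 ± 0.10 (edgeR adjusted p = 1.09e-08). The nuclear long noncoding RNA Malat1 was 71072, 73654 and 74260.1 and 19441, 26772 and 30918 CPM (-1.41 ± 0.13). Ifi27 was lower, with a log2 difference of -1.52 ± 0.18, and Cox7c, a subunit of cytochrome c oxidase, showed one of -2.01 ± 0.22. These shifts were not confined to the epithelium. Mean Malat1 was 53896 ± 6612 CPM (SD, n = 3) in WT vehicle microglia and 14008 ± 3973 in Ifnar1-/- vehicle microglia, and Cox7c was 96.2 ± 14.3 and 20.3 ± 8.06. In all kept nuclei outside the epithelium Malat1 was 60557 ± 9281 and 17283 ± 4207.

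Over all genes tested in this comparison 13.8% were higher and 14.7% lower, and the lists are read beside these shares. The part of shifts shared with other cell classes, and of gene length, was not tested for these lists. The ion transport list had 4 genes higher and 6 lower in Ifnar1-/- vehicle among 19 tested. Slc12a2 (log2 difference 0.49 ± 0.13) and the kinase gene Stk39 that regulates it (0.62 ± 0.10) were higher, and the potassium channel gene Kcnj13 (-1.02 ± 0.15) and the carbonic anhydrase genes Car2 (-0.74 ± 0.17) and Car14 (-0.82 ± 0.16) were among those lower. The junction list had 5 higher and 1 lower of 13, with Ocln, which encodes occludin, at 0.50 ± 0.18, the scaffold gene Tjp1 at 0.45 ± 0.17 and the keratin gene Krt18 at -1.25 ± 0.25. Of 19 secreted factors 2 were higher, Sulf1 and Tgfb2, and 6 were lower, among them Ttr, the growth factor gene Vegfa (-0.73 ± 0.17) and the protease inhibitor gene Cst3 (-1.13 ± 0.19). The 19 hold Kl, 1 of the 6 genes the rule used, so the counts of that list are a description with no test. Mean Cst3 was lower in astrocytes too, at 1453 ± 435 CPM in WT vehicle and 501 ± 35.4 in Ifnar1-/- vehicle. Of 19 cilia genes 8 were higher, such as Spag16 (0.52 ± 0.15), and 2 were lower. Of 16 clock genes, Rora (1.07 ± 0.14) and Npas2 (0.89 ± 0.25) were higher and Per3 (-0.64 ± 0.22) and Dbp (-1.01 ± 0.29) lower. Of the 26 tested interferon-list genes 2 were higher and 1, Ifi27, was lower, and on the receptor list Irf3, a transcription factor that acts below STING, was lower (-1.32 ± 0.24, edgeR adjusted p = 0.000338).

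The largest differences lay among genes that are low in the epithelium. Among the 15 largest rises were the glutamate receptor gene Grm3 (7.14, 7.25 and 4.46 CPM in WT vehicle, 86.4, 33.3 and 33.5 in Ifnar1-/- vehicle, 427 in other nuclei), the astrocyte glutamate transporter gene Slc1a2 (24.995, 47.6 and 37.9 and 127, 135 and 251, with 999) and the adhesion genes Ntm and Cdh20. Of these 15, 14 had a mean above that of the epithelium in other nuclei, the exception being the translational activator gene Taco1 (32.1, 12.4 and 13.4 and 188, 68.4 and 66.008, with 46.6). With the excitatory marker level as a covariate, Grm3 and Slc1a2 still passed (log2 differences 2.42 and 2.09), and of the 30 genes named for this comparison by the rule 28 kept their call. That level rests mostly on Syt1 and did not overlap between the vehicle groups (496 to 557 CPM in WT, 567 to 895 in Ifnar1-/-). The kept calls are therefore no test of RNA from other cells. The part of the astrocyte and microglia marker levels, given above, was not tested. Among the 15 largest falls were the noncoding transcripts Dancr (60.7, 52.8 and 93.6 and 3.09, 9.50 and 11.9 CPM) and Snhg8 (log2 difference -2.66 ± 0.42), the linker histone gene Hist1h1c (-2.63 ± 0.33) and the coactivator gene Edf1 (-2.79 ± 0.42). The 15 falls were short genes, such as Dancr (chr5:74093060-74095406). The 15 rises were longer genes, such as Ntm (chr9:28994750-29963141), except Taco1 (chr11:106066061-106073612). The part of gene length in these differences was not tested. Of all 1385 genes that were lower in Ifnar1-/-, 1239 were higher in the epithelium than in other nuclei, and of the 1303 that were higher, 752 were.

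The epithelial response was set beside that of 3 other cell classes of the same libraries, picked by their own markers: 4029 microglia, 9284 astrocyte and 1307 fibroblast nuclei. In WT microglia 54 of 72 tested interferon-list genes rose (1.69% of all genes tested rose), with a median log2 change of 1.98, and in astrocytes 29 of 54 (0.331% of all genes), with a median of 1.89. In fibroblasts 0 of 34 passed, as did 0 of all 7195 genes in the direction of a rise, with a list median of 0.995, beside 5 of 26 and 1.02 in the epithelium. The classes differ in nuclei, depth and list genes tested, and each class's count filter could be met through the WT DMXAA libraries alone. The counts and medians are therefore a description and no ranking of the classes. The difference between classes was tested gene by gene on the same animals. Between epithelium and microglia 17 of 12423 genes differed in their WT change (0.137%), between epithelium and astrocytes 4 of 13530 (0.0296%), and between epithelium and fibroblasts 0 of 9828 in edgeR, with 595 (6.05%) at an unadjusted p under 0.05 and 6 in limma.

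Ifi27 rose less in the epithelium than in astrocytes and from a higher level. It was 182 ± 25.8 CPM (mean ± SD, n = 3) in WT vehicle epithelium and 399.8 ± 26.970 after DMXAA, and 20.9 ± 4.74 and 178 ± 4.75 in astrocytes, a difference between the log2 changes of -1.98 ± 0.19 (edgeR adjusted p = 5.31e-07). WT DMXAA microglia held 43.7 ± 5.35 and fibroblasts 146 ± 18.5. Tor3a, an interferon-induced ATPase gene, had a difference to the microglial log2 change of -1.62 ± 0.35 (edgeR adjusted p = 0.0459), with 45.2 and 63.6 CPM in epithelium and 19.4 and 81.9 in microglia. Helz2, a helicase gene, was 7.67 and 8.35 CPM in epithelium and 0.411 and 20.9 in microglia (edgeR adjusted p = 0.0396). Its fitted difference depends on the prior count, since 2 of the 3 WT vehicle microglia libraries had 0, and is not given. Nlrc5, the activator of class I histocompatibility genes, was 19.003 and 24.978 CPM in epithelium and 11.8 and 105 in microglia (-2.78 ± 0.50, edgeR adjusted p = 0.0124). Bst2 reached 73.023 ± 33.1 CPM in the epithelium, 73.8 ± 29.6 in microglia and 19.6 ± 7.62 in astrocytes, and its change was not among those that differed.

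The fall of Ap1s2 differed from its change in astrocytes, by -1.52 ± 0.20 (edgeR adjusted p = 0.000122). WT epithelium went from 339 ± 31.5 to 146 ± 11.7 CPM, and astrocytes held 34.9 ± 5.79 and 41.1 ± 5.46. Microglia held 56.7 ± 10.7 and 52.4 ± 10.9, and the other classes less, and the differences to microglia and fibroblasts did not pass. The rise of Slc24a4 differed from its change in microglia by 1.60 ± 0.32 (edgeR adjusted p = 0.0351), and that of the antisense transcript Nr6a1os by 1.38 ± 0.23 (edgeR adjusted p = 0.00779). Gas6, a ligand of receptors on phagocytes, differed by 1.18 ± 0.25, being 226 and 267 CPM in epithelium and 87.9 and 47.6 in microglia. The potassium channel gene Kcnd2 and Rtp4 were the other genes that differed from astrocytes, and the fitted size for Rtp4 depends on the prior count, since vehicle epithelium had 0 UMIs. The count for microglia was 0 without WT vehicle library 2, 6 without WT vehicle library 3, 2 without WT DMXAA library 1, 9 without WT DMXAA library 2 and 27 without WT DMXAA library 4, and that for astrocytes was 2 without WT vehicle library 2 and 8 without WT DMXAA library 4. With DMXAA in Ifnar1-/- 2 genes (0.0161%) differed from microglia, beside 650 (5.23%) at an unadjusted p under 0.05, and 0 from astrocytes.

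**Figure D5:**
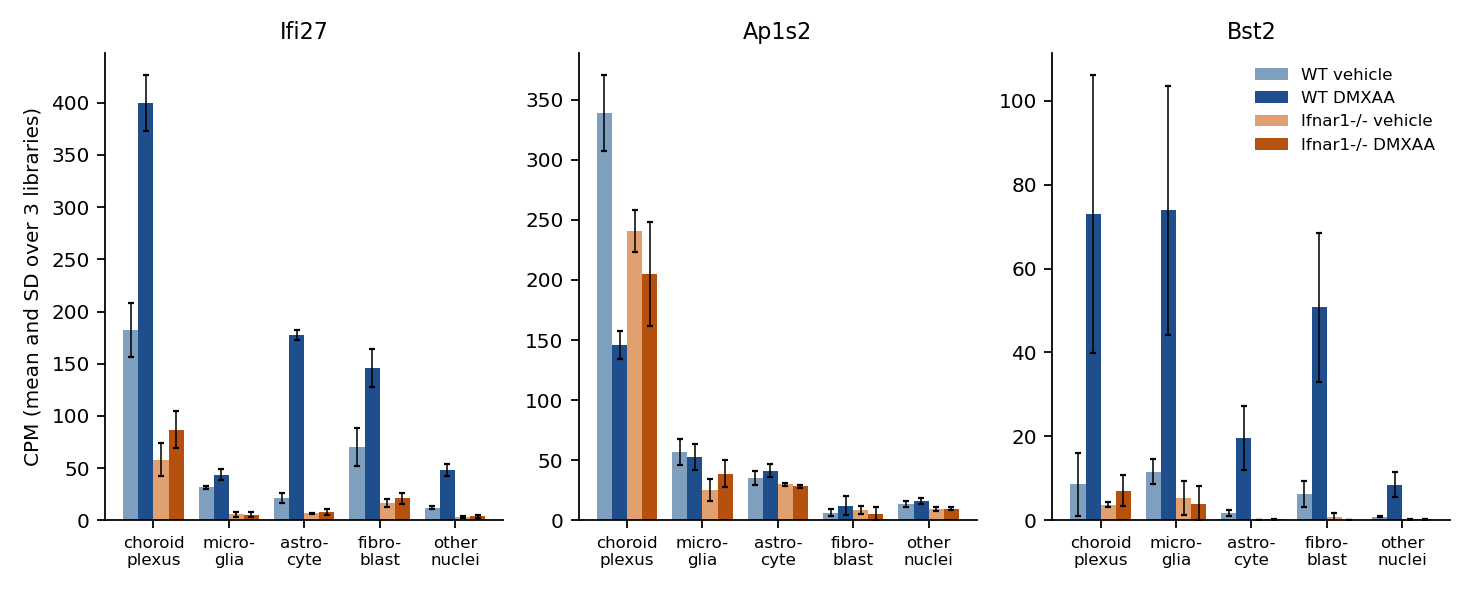
CPM of Ifi27, Ap1s2 and Bst2 in choroid plexus epithelium, microglia, astrocytes, fibroblasts and all other kept nuclei, by group, as mean ± SD of 3 libraries. Ifi27 and Ap1s2 are highest in the epithelium in every group, and Bst2 after DMXAA in WT reaches like levels in epithelium and microglia.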

How the data were processed

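Nuclei of mouse hippocampus were sequenced with the 10x 3′ chemistry in 16 libraries. Per the labels, the authors aligned reads to mm10 and counted UMIs with Cell Ranger 3.1.0 (the headers of the deposited matrices name Cell Ranger 6.1.2), counting unspliced RNA as well, and Seurat 3.0 is named for later steps. The deposited values are raw UMI counts of 32285 genes per barcode, 66059561 to 93228638 per library. Barcodes with 200 to 4000 genes and at most 5% mitochondrial counts were kept.

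UMIs of epithelial nuclei were summed per library and tested with edgeR 4.0.16 (TMM, filterByExpr, quasi-likelihood test, 4 groups in 1 fit of 12 libraries). The 9442 genes tested include the 6 rule markers and 2 of the 5 exclusion genes, which were not left out of the shares. A gene passed at a Benjamini-Hochberg adjusted p under 0.05 and an absolute log2 change over 0.1. The SE given with a log2 change is its absolute value divided by the square root of the test's F. It is an approximation and is least reliable for changes near 0. DESeq2 1.42.0, limma 3.58.1, other normalization, filters, nucleus limits and left-out libraries were alternatives. Microglia, astrocytes and fibroblasts were picked by markers, and their changes were compared with the animal kept as a block. CPM is per 1000000 UMIs of the epithelial nuclei in a library. The code was tested on simulated counts. Values of a few named genes are not reported here. Coordinates are from GENCODE M21 and promoters from RefSeq. The rule for genes to name was all those called where 30 or fewer were, otherwise the 15 largest rises and falls whose libraries did not overlap. It added the 10 lowest p where under 10 passed, called list members and up to 4 others per list. The text follows this rule in part. Kit, Apod and Gm42609, rises that were higher in other nuclei, and falls such as Tafa2 and Pde1a are not described. Col4a3, Cdh3, Atp7a, Piezo1, Hsp90b1, Manf, Cfap69, Wdr63, P3h2 and Osbp lie outside it and were picked from the called genes. The nuclei and gene lists were chosen with earlier results of these data known. Each library is 1 animal, and intervals and floors cover counting error only.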

Additional observations from a re-analysis of the deposited data

Results flagged for a closer look

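Over all kept nuclei, the lowest WT DMXAA library had 13.9 CPM of Ifnar1 (library 3, with 13 epithelial nuclei, below the minimum used), against 18.4 to 19.3 in the other WT DMXAA libraries, a gap beyond Dixon's critical value for 4 samples. The highest Ifnar1-/- DMXAA library kept 7383 nuclei, which also lay beyond it. Chance marks about 1 in 20 groups.

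In the 13 epithelial nuclei of WT DMXAA library 3, interferon-list UMIs were 9.67 per 10000, beside 14.7 to 32.5 in the other WT DMXAA libraries and 7.90 to 9.65 in the WT vehicle libraries. This library entered a fit of expression only in the setting of at least 10 nuclei. By a test of the difference between cell classes, 17 genes changed differently with DMXAA in WT epithelium and microglia, 2 in Ifnar1-/- epithelium and microglia, and 4 in WT epithelium and astrocytes.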

How the results depend on the processing

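The count of 67 genes in WT was 226 with no filter on low counts, 107 in a fit of only the compared groups, 4 with libraries of at least 10 nuclei, 9 with none of the 5 exclusion genes, 2 with no upper limit on genes and, in settings chosen after seeing the data, 37 with only genes as high in the epithelium and 0 with the excitatory marker covariate (edgeR, 506 at an unadjusted p under 0.05). Leaving out 1 library gave 9 to 119. DESeq2 passed 52, limma 50 and RLE size factors 60. The count of 1 in Ifnar1-/- was 80 with no filter, 2 with none of the 5 exclusion genes, 0 in DESeq2, limma, the fit of compared groups, at least 10 nuclei, at least 4 markers, no upper limit, genes as high and the covariate, and 0 to 15 without 1 library. The interaction count of 0 was 26 with no filter, 1 in DESeq2 and 0 to 1 without 1 library. The genotype count of 2688 was 1727 with the covariate and 1812 to 2724 without 1 library. The interferon-list median of 1.02 in WT was 1.48 with no filter, 0.31 with the covariate and 0.78 to 1.15 without 1 library. In Ifnar1-/- the median of 0.01 was 0.0432 in limma, 0.0234 in the fit of compared groups, 0.0603 with at least 10 nuclei, -0.0374 with at least 4 markers, 0.0396 with none of the exclusion genes, 0.1078 with no upper limit, -0.3206 with the covariate and -0.0832 to 0.0896 without 1 library. Without thinning, the difference in the Ifnar1-/- share of nuclei with a list UMI was -0.974 points, against 3.35. The counts of genes that differed between classes were 74 (no filter), 35 (limma) and 0 to 27 without 1 library for microglia, 54 and 2 to 8 for astrocytes (no filter, 1 library out), and 29, 6 and 0 to 2 for fibroblasts. Epha6 in Ifnar1-/- had a log2 change of 0.13 with no upper limit, against -1.03. Without 1 library the share differences were 0.0951 to 0.877 points (WT) and -0.913 to -0.212 (Ifnar1-/-), the differences in list UMIs per 10000 6.94 to 15.8 and 0.110 to 0.535, and those in thinned shares 19.6 to 31.9 and 1.04 to 5.30 points. The causes were not tested. No paired analysis was possible because the groups compared share no animal number in the labels, and the replicate numbers used here only follow the order of the samples. Libraries with 51 nuclei and 3 libraries per group limit what low genes can show.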

Other observations

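Transthyretin transcripts were also found outside the epithelium, at a higher level in libraries with more epithelial nuclei. In oligodendrocyte nuclei Ttr ran from 0.929 CPM in WT vehicle library 4, with 0 epithelial nuclei, to 269 CPM in WT DMXAA library 2, with 158. Over the 16 libraries the correlation between the number of epithelial nuclei and this level was r = 0.816 (permutation test over libraries, p = 5e-05, adjusted over the 6 tests p = 3e-04) and Spearman's rho = 0.782 (permutation p = 0.00054, adjusted 0.00108), and r was 0.755 without the 2 libraries farthest from the median. Within the 8 WT libraries r was 0.990 (permutation p = 0.00031, adjusted 0.00093) and rho 0.905 (permutation p = 0.0048, adjusted 0.00641), with r = 0.987 without 2 libraries. Within the 8 Ifnar1-/- libraries r was 0.877 (permutation p = 0.00534, adjusted 0.00641) and rho 0.786 (permutation p = 0.0288, adjusted 0.0288), with r = 0.644 without 2 libraries. The points share depth and the dissection of the same tissue.

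Cx3cr1 stood at 192 ± 44.8 CPM (SD, n = 3) in WT vehicle epithelial nuclei, beside 847 ± 43.0 in microglia, 12.6 ± 4.41 in astrocytes and 29.0 ± 2.24 in all other nuclei. Of the 1297 epithelial nuclei, 23 held 3 or more of the 9 microglia markers.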
